A study of Mus musculus with 40 samples.

Results

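The effect of dietary vitamin E was examined in the cerebral cortex of aged Ttpa-/- mice, by setting the deficient diet against the supplemented diet within 1 genotype. The comparison rests on 8 of the 40 Agilent 1-colour arrays of the series, 4 for each diet, chosen by their labels alone. All mice of the series have the C57Bl/6 background. The Ttpa-/- mice were 29 months old, lacked Ttpa, and received an α-tocopherol-deficient diet, whose residual amount is not given, or a diet with 600 mg of α-tocopherol/kg. Wild-type cortex of the same age, from 4 mice on the normal diet (36 mg of α-tocopherol/kg) and 4 on the deficient diet, and the cerebellum of Ttpa-/- mice on both diets, 4 arrays each, gave the levels for reference. There was no Ttpa-/- group on the normal diet, so the comparison spans the whole step from deficiency to excess. Each array stands for 1 mouse, and whether cortex and cerebellum came from the same mice is not given.

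Ttpa encodes the α-tocopherol transfer protein, which returns dietary α-tocopherol from the liver to the circulation. Without it, the vitamin is lost from plasma and brain unless it is fed in excess, and the human counterpart of the defect is an ataxia that high doses of the vitamin can slow. α-Tocopherol sits in membranes, where it stops chains of lipid peroxidation, and lipid-rich structures such as myelin are classical targets of its absence.

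Levels are given as log2 of the deposited intensity relative to the 75th percentile of the array, so that 0 is the level of that percentile and a step of 1 is a 2-fold difference. Levels of different probes were not compared. The 75th percentile of the 8 arrays lay between 481 and 549 intensity units, the share of probes well above background was 53.0% to 57.1%, and arrays of 1 diet correlated at 0.977 to 0.992 across genes, which are not independent replicates. All deficient arrays were on 1 slide and all supplemented arrays on another, so slide and diet cannot be told apart in the cortex. The median local background was 39 to 45 on the deficient and 25 to 28 on the supplemented arrays. In the cerebellum both diets shared a slide. In a principal component analysis of the 8 arrays, deficient replicate 4 lay at 3.12 on the leading component, which held 38.9% of the variance, between supplemented replicates 1 (0.30) and 2 (8.12), whereas deficient replicates 1 to 3 lay at -44.8, -28.3 and -22.2. In both groups Ttpa was well above background on 0 of 4 arrays, as in wild-type cortex on the normal diet, so that it does not check the genotype in this region. Of the cortical excitatory neuron markers, all 12 passed the filter on dim probes and 1 was called between the diets.

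Probes were called by limma with a Benjamini-Hochberg adjusted p under 0.05 and a fold over 1.5. On the deficient arrays 579 probes (1.99% of 29077 tested) were called higher, and 383 (1.32%) lower, than on the supplemented arrays. These correspond to 275 and 225 gene symbols. The remaining called probes carry no symbol, and 200 of the up-regulated and 61 of the down-regulated probes stand for intervals of predicted long intergenic RNA, of which 4650 were tested. No overlap between the 4 + 4 arrays was seen in 739 of 962 called probes, against 19.0% of all probes tested. Changes were moderate, since 51 probes rose and 88 fell more than 2-fold. At an adjusted p alone, 4097 probes differed, and at an unadjusted p 8209. The split depended on the scaling, since 60.2% of the called probes were up-regulated with the 75th percentile, 71.9% after quantile normalization and 87.9% when each array was scaled to its median, under which the median change of all tested probes was 0.09 instead of -0.02. Without deficient replicate 1, 243 probes were up- and 216 down-regulated, without supplemented replicate 3 they were 381 and 244, and without deficient replicate 4 they were 945 and 536. These counts borrow the spread of all 40 arrays. With only the 8 compared arrays, 0 probes were called by the same limma test, the smallest adjusted p was 0.0624, and 1279 probes passed an unadjusted p with the fold. With the prior spread then taken over the tested probes alone, 427 were up- and 255 down-regulated.

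The up-regulated probes lay away from wild-type cortex on the normal diet mainly in the deficient mice. Their median difference from aged wild-type cortex on the normal diet was 0.75 in deficient and 0.05 in supplemented Ttpa-/- mice, and 0.22 in wild-type mice on the deficient diet. For the down-regulated probes the medians were -0.58, 0.19 and -0.06. Over all tested probes the medians were -0.02, 0.00 and 0.01. The probes were chosen on the same Ttpa-/- arrays, so these medians are a description. Against the wild-type mice on the normal diet, 4.75% of the probes tested were called in deficient Ttpa-/- mice, 0.0920% in supplemented Ttpa-/- mice and 0.223% in wild-type mice on the deficient diet. Supplemented Ttpa-/- and deficient wild-type cortex shared a slide, and wild-type cortex on the normal diet was on another. Deficient Ttpa-/- cortex was on a slide with none of these groups, so slide and group cannot be told apart in these shares.

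**Figure D1:**
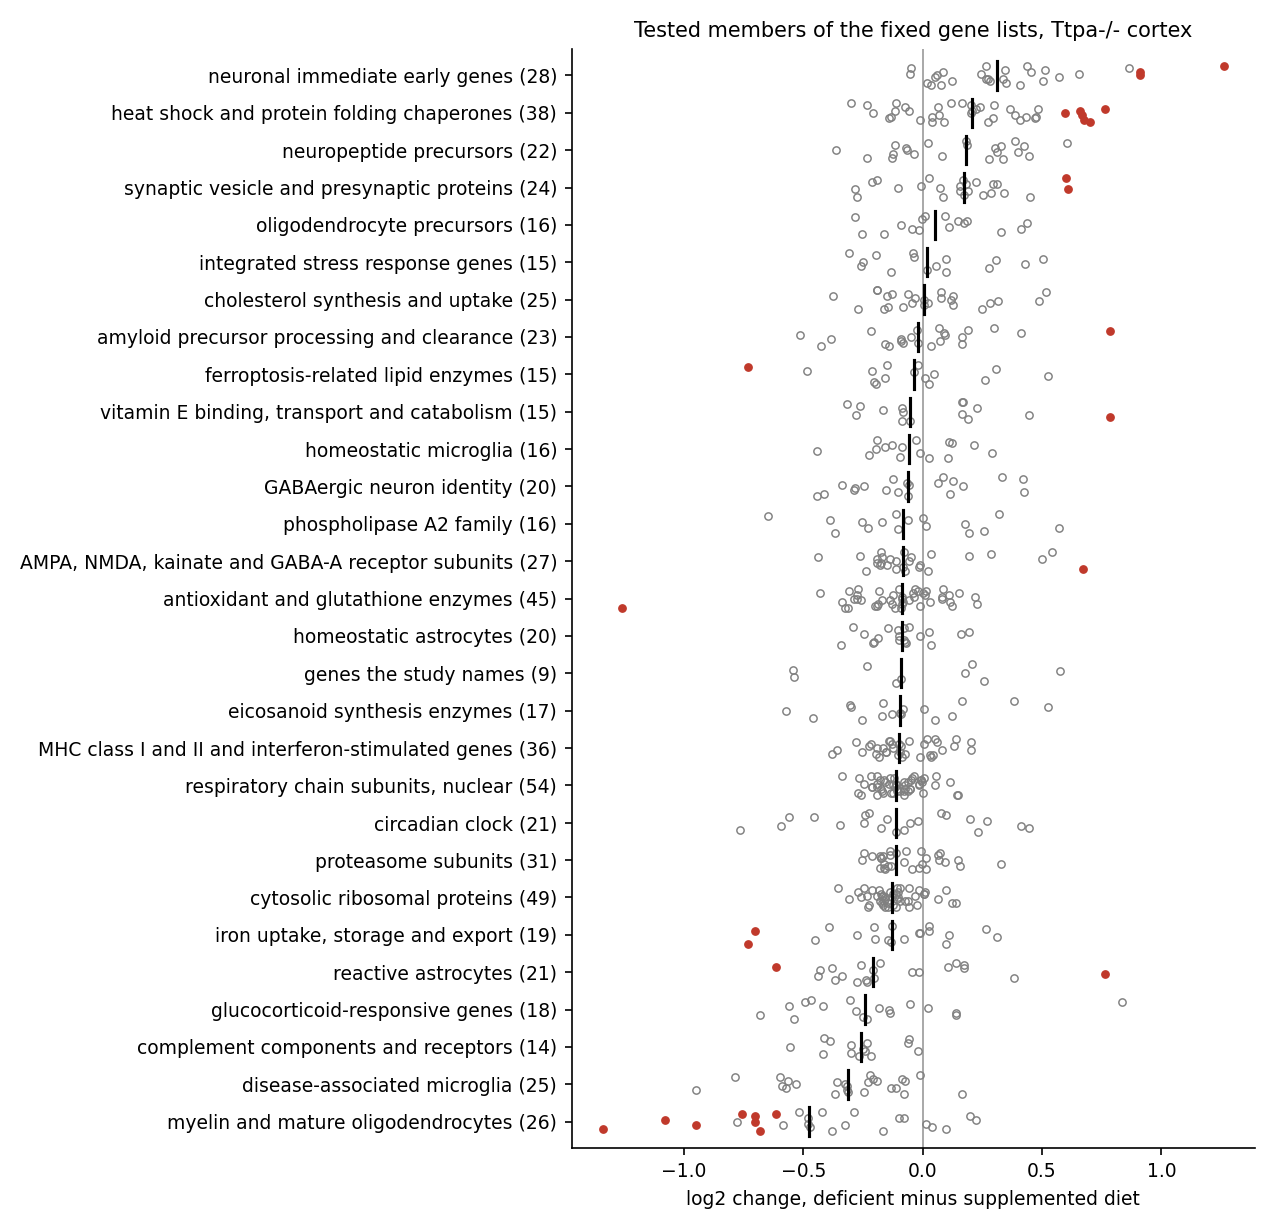
Log2 change in the cortex of Ttpa-/- mice (deficient minus supplemented diet, x axis) of every tested member of the 29 pathway lists other than the chromosome 4 cluster, with the number tested in brackets. Filled red circles are called genes, open circles are genes that were not called, and black bars are list medians, which run from -0.47 for myelin to 0.31 for neuronal immediate early genes.

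Myelin and mature oligodendrocyte genes formed the pathway list with the lowest median, apart from the chromosome 4 cluster described further on. Of 26 members tested, 8 were down-regulated on the deficient diet (against 1.32% of all probes), 0 were up-regulated and 21 were lower, with a median change of -0.47 against -0.02 for all tested probes. The deficient and supplemented arrays did not overlap for 13 members, all lower on the deficient diet, against 19.0% of all probes in either direction. Opalin, a membrane protein of mature oligodendrocytes (chromosome 19), was at -2.06, -1.44, -1.07 and -1.38 on the deficient arrays and at -0.40, -0.31, 0.17 and -0.06 on the supplemented arrays. It fell by 1.34 on the log2 scale (SE 0.39, adjusted p = 0.0200), and the groups did not overlap. Mobp, a structural protein of compact central myelin (chr9:120085150-120085209 of mm9), was at 2.59, 3.47, 3.54 and 3.36 on the deficient and 4.60, 4.37, 4.35 and 3.96 on the supplemented arrays. It fell by 1.08 (SE 0.27, adjusted p = 0.00801), with 2 of its 3 probes called. Tspan2, a tetraspanin of differentiating oligodendrocytes (chr3:102576043-102576102), was at 2.09, 2.54, 2.53 and 2.63 on the deficient and at 3.45, 3.32, 3.54 and 3.28 on the supplemented arrays. Its fall of 0.95 (SE 0.16, adjusted p = 0.000422) was seen by both of its probes. The lowest supplemented array was above the highest deficient array for each of these genes.

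The other 5 called members, named after their values were seen, were Mal, a myelin lipid raft protein (-0.76), Trf, which encodes transferrin (-0.70), Aspa, the enzyme that cleaves N-acetylaspartate (-0.70), Hapln2, a link protein of nodes of Ranvier (-0.68), and Cldn11, the tight junction claudin of myelin (-0.62). Their adjusted p ran from 0.00588 for Hapln2 to 0.0350 for Trf. Mbp, which encodes myelin basic protein, had 3 probes, at -0.38, 0.12 and 0.32, none of them called. The oligodendrocyte transcription factors Sox10 (0.20) and Myrf (0.10) were not called either. For oligodendrocyte precursors, 0 of 16 members were called and the median change was 0.05.

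The mean level over the 26 myelin genes was 1.84, 2.04, 2.21 and 2.07 on the deficient and 2.61, 2.28, 2.51 and 2.51 on the supplemented arrays. It was 2.42 in wild-type cortex on the normal diet and 2.08 in wild-type cortex on the deficient diet, where 0 of 26 members were called against the normal diet. Deficient replicate 1, the lowest of the array means, was also low in choroid plexus genes, as given with the marker lists. Without it 1 member, Tspan2, was still called, and the median was -0.40. Without supplemented replicate 3, 4 members were called. With each array scaled to its median Tspan2 alone was called, and the median was -0.36. In bulk tissue, fewer oligodendrocytes and less RNA per oligodendrocyte cannot be told apart, and the part of white matter in a dissection was not tested. In the cerebellum, with both diets on 1 slide, 0 of the 26 genes were called and the median was -0.06.

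**Figure D2:**
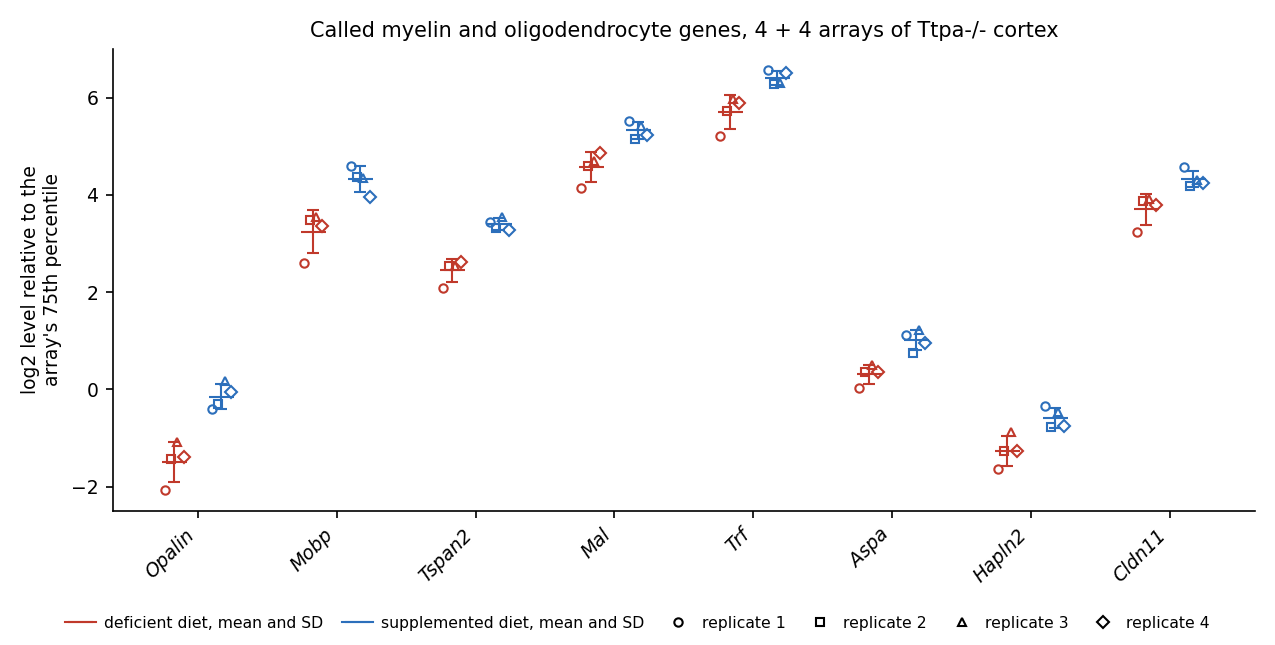
Log2 level relative to the array's 75th percentile (y axis) of the 8 called myelin and oligodendrocyte genes on each array of Ttpa-/- cortex, red for the deficient and blue for the supplemented diet, with symbols for the replicates and bars for the mean and SD (n = 4). The red points lie below the blue points for every gene, and replicate 1 is the lowest deficient array in each.

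Some chaperones of protein folding rose. Of 38 heat shock and folding chaperone genes tested, 6 were up-regulated (against 1.99% of all probes), 0 were down-regulated, and 13 were higher at an adjusted p alone, with a median change of 0.21. The arrays of the diets lay apart for 19 of them, 17 with the deficient arrays higher, against 19.0% of all probes in either direction. When the list was divided by place after the values were seen, 11 members belonged to the endoplasmic reticulum and all 11 were higher on the deficient diet, with 4 called and a median of 0.47. The other 27 members had a median of 0.07, with 2 called. Endoplasmic reticulum chaperones fold secreted and membrane proteins, and their genes are known targets of the unfolded protein response, in part through a promoter element called ERSE.

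The ERSE letters, CCAAT and CCACG with 9 bases of any kind between them, were searched on both strands of RefSeq promoter windows (GRCm38.p6, 250 bases before to 50 after the start), because the element is a known route to such genes. The motif was chosen after the values were seen. It was found in 39 of 32851 windows (0.119%), and in 5 of the 42 windows (11.9%) of 32 genes of the chaperone list. Of the 4 called endoplasmic reticulum members, Calr alone holds it in these windows. The matches, on the strand of the gene and with the motif in capitals, belong to Hspa5 at chr2:34772020-34772048, Calr at chr8:84847070-84847098, Hsp90b1 at chr10:86705633-86705661, Pdia6 at chr12:17266486-17266514 and Creld2 at chr15:88819515-88819543. Those of Calr and Creld2 read in the reverse orientation.
Hspa5: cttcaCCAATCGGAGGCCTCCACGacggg
Calr: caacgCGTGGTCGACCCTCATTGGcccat
Hsp90b1: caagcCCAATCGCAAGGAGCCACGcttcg
Pdia6: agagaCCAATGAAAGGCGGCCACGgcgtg
Creld2: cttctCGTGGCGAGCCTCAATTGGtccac
Hsp90b1 holds a further match nearer to its start, in reverse orientation. A match describes these letters only and is no site shown to be used.

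Of these 5 genes, Calr, which encodes the calcium-binding chaperone calreticulin, was called. It was at 4.27, 3.99, 4.08 and 3.91 on the deficient and 3.46, 3.52, 3.27 and 3.61 on the supplemented arrays, a rise of 0.60 (SE 0.11, adjusted p = 0.000689). Hspa5, the main chaperone of the endoplasmic reticulum, was at 5.27, 5.10, 5.18 and 5.56 on the deficient and at 5.09, 4.79, 4.56 and 4.80 on the supplemented arrays. Its difference of 0.47 (SE 0.11) passed the adjusted p (0.00408) and stayed under the fold, as did Creld2 (0.43, adjusted p = 0.00228). Pdia6 (0.24) and Hsp90b1 (0.09) passed neither. The changes of the 5 genes thus ran from 0.09 to 0.60.

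Sdf2l1, a component of the chaperone complex of Hspa5, was at 0.46, 0.03, 0.30 and 0.27 on the deficient and -0.09, -0.65, -0.58 and -0.43 on the supplemented arrays, and rose by 0.70 (SE 0.15, adjusted p = 0.00307). Pdia4, a disulfide isomerase, rose by 0.67 (adjusted p = 0.000797), and Hyou1, a nucleotide exchange factor for Hspa5, also by 0.67 (adjusted p = 0.00405). For these 3 genes and Calr every deficient array was above every supplemented array. Outside the endoplasmic reticulum, Chordc1, a cochaperone of Hsp90, rose by 0.66 (adjusted p = 0.00157). Hspb1, the small heat shock protein also counted with reactive astrocytes, was at 3.29, 2.58, 2.81 and 2.97 on the deficient and 2.67, 1.94, 1.96 and 2.03 on the supplemented arrays. It rose by 0.76 (SE 0.19, adjusted p = 0.00785), with supplemented replicate 1 above deficient replicate 2. Hspa1a, the inducible cytosolic Hsp70, had a change of 0.28 and was not called. Heat shock elements, searched as GAA, TTC and GAA with 2 bases between each, were in 0.603% of all windows and in those of Chordc1, Hspd1, Hspe1 and Hsph1, of which Chordc1 was called.

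In the cerebellum, where 0.343% of 30643 probes were called between the diets, all 11 endoplasmic reticulum members were also higher on the deficient diet, with a median of 0.56, 3 called (Sdf2l1, Hspa5 and Manf) and 8 past the adjusted p. Counts of called chaperones in the cortex ran from 4 to 6 when single arrays were left out, with the lowest count without deficient replicate 1, where Hspb1 and Calr were lost, and Calr was also lost without supplemented replicate 3. They fell to 3 after normexp background correction and rose to 8 with median scaling. The mean of the chaperone list was 2.83 in wild-type cortex on the normal diet, between the deficient arrays (2.90 to 3.02) and the supplemented arrays (2.64 to 2.82).

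**Figure D3:**
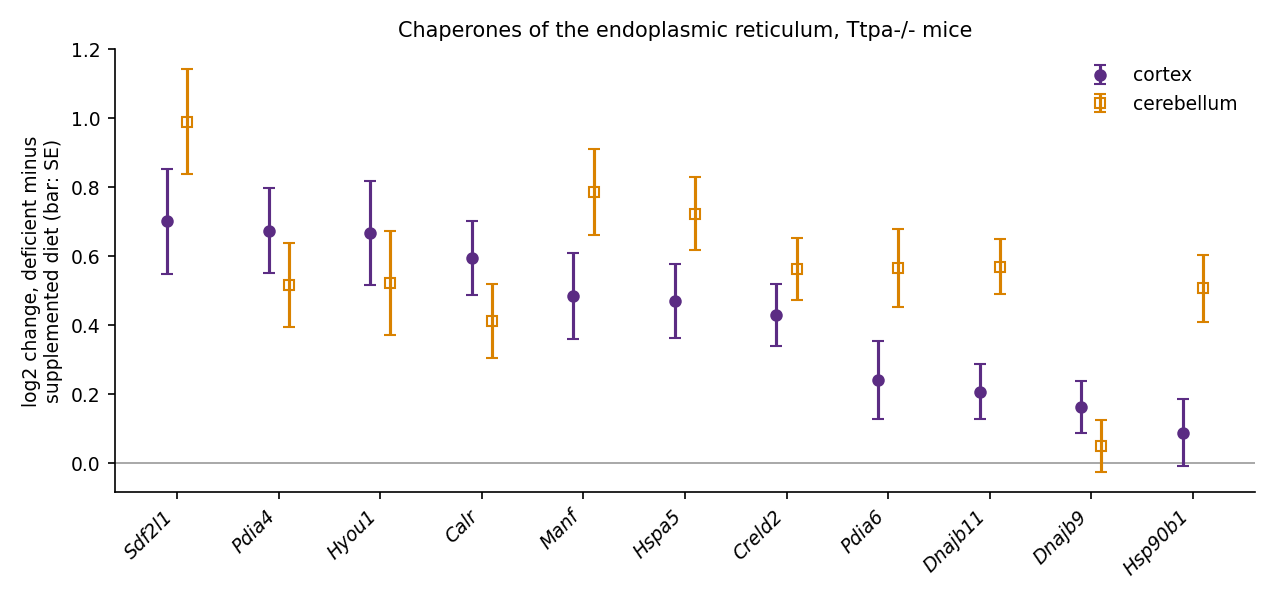
Log2 change (deficient minus supplemented diet, y axis) of the 11 tested endoplasmic reticulum chaperone genes in Ttpa-/- cortex (filled circles) and cerebellum (open squares), with bars for the SE of the limma fit (n = 4 + 4 arrays a region). All values in both regions lie above 0, from 0.09 for Hsp90b1 to 0.70 for Sdf2l1 in the cortex.

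Among genes induced by neuronal activity, few passed and most were higher on the deficient diet. Of 28 immediate early genes tested, 3 were up-regulated (against 1.99% of all probes), 0 were down-regulated and 26 were higher, with a median change of 0.31, the highest of the pathway lists. The arrays of the diets lay apart for 6 of the 28, all higher on the deficient diet, against 19.0% of all probes in either direction. Nptx2, a secreted pentraxin that gathers AMPA receptors at synapses, was the largest rise among probes with a symbol and no overlap. Its probe at chr5:145317727-145317786 was at -0.54, -1.65, -1.30 and -1.95 on the deficient and -2.51, -2.66, -3.01 and -2.77 on the supplemented arrays, a rise of 1.38 (SE 0.30, adjusted p = 0.00289), and its other probe rose by 1.26 (adjusted p = 0.0172), a call lost without deficient replicate 1, as was that of Egr3. Fosb, a subunit of the AP-1 transcription factor, was at 1.40, 1.48, 1.67 and 1.55 on the deficient and 0.45, 0.39, 0.71 and 0.92 on the supplemented arrays, and rose by 0.91 (SE 0.19, adjusted p = 0.00282). Both genes separated the diets on all arrays. Egr3, a zinc finger transcription factor, was above background on 4 of 4 deficient and 0 of 4 supplemented arrays and was at least 1.66-fold higher on the deficient diet (adjusted p = 0.00951). A bound of this kind sets the mean of the bright group against the lowest signal that counts as well above background on the dim arrays.

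The best known members were not called. Fos was at 1.80, 1.50, 1.90 and 1.78 on the deficient and 1.06, 1.01, 1.71 and 1.57 on the supplemented arrays, a difference of 0.41 (adjusted p = 0.651), Arc differed by 0.51 (adjusted p = 0.204) and Npas4 by 0.57 (adjusted p = 0.241). The spread behind these adjusted p came from all arrays of the series, not from the diet groups alone. Within the diet groups, Fos ran from 1.50 to 1.90 on the deficient and from 1.01 to 1.71 on the supplemented arrays, which overlapped. The missing calls therefore do not show a wide spread within these groups. The mean of the list was 1.65, 1.44, 1.64 and 1.57 on the deficient and 1.13, 1.06, 1.30 and 1.36 on the supplemented arrays. In wild-type cortex on the normal diet it was 1.55, within the range of the deficient arrays, and the median differences from that group were -0.08 for deficient and -0.37 for supplemented Ttpa-/- mice. In wild-type mice on the deficient diet the mean was 1.35 and the median difference -0.25. The time of day and handling before death, which these genes follow, are not given. The letters of the cAMP response element, TGACGTCA, were in 1.79% of all promoter windows and in those of Btg2 and Dusp1 of this list, neither of which was called (-0.05 each).

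Among 24 synaptic vesicle and presynaptic genes, 2 were up-regulated (against 1.99% of all probes) and 0 down-regulated, and 18 were higher, with a median of 0.17. Slc17a7, the vesicular glutamate transporter of cortical excitatory neurons, was at 4.17, 3.78, 3.86 and 3.03 on the deficient and 3.17, 3.28, 2.88 and 3.08 on the supplemented arrays. It rose by 0.61 (SE 0.17, adjusted p = 0.0192). Of the 12 cortical excitatory neuron markers, to which it belongs, 5 were higher and 7 lower on the deficient diet, with a median of -0.07. Syn3, a synapsin, was at 0.81, 0.60, 0.61 and -0.09 on the deficient and -0.09, 0.00, -0.37 and -0.01 on the supplemented arrays, and rose by 0.60 (adjusted p = 0.0222). In both genes deficient replicate 4 lay among the supplemented arrays, and the exact two-sided permutation test gave p = 0.114 for each, where the smallest possible is 0.0286. Neither was called when deficient replicate 1, 2 or 3 or supplemented replicate 3 was left out, nor after normexp correction, and without deficient replicate 4 the list held 3 calls. Another probe of Syn3 had a change of -0.71 and was not called, and the remaining probe was too dim to be tested. Snap25, a core of the fusion machinery, had a change of -0.01. Of 27 glutamate and GABA-A receptor subunits 1 was up-regulated (against 1.99% of all probes) and 0 down-regulated. This was the NMDA receptor subunit Grin2d (0.67, adjusted p = 0.0316), again with deficient replicate 4 (-3.67) apart from the other deficient arrays. It was not called without deficient replicate 1, 2 or 3 or supplemented replicate 3 or 4. Of 20 GABAergic identity genes and 22 neuropeptide precursors, 0 were called.

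The lists of vitamin E handling and of antioxidant defence held 1 call each. Of 15 tested genes for binding, transport and catabolism of vitamin E, 1 was up-regulated (against 1.99% of all probes) and 0 down-regulated. This was Pltp, the phospholipid transfer protein, which also moves α-tocopherol between lipoproteins, at 2.34, 2.19, 2.25 and 1.73 on the deficient and 0.87, 1.57, 1.34 and 1.60 on the supplemented arrays. It rose by 0.78 (SE 0.20, adjusted p = 0.00835), the groups did not overlap, and it was called with any array left out. The lipoprotein receptor Scarb1 (0.16), Apoe (0.16) and the ω-hydroxylase Cyp4f14 (-0.09), which starts the breakdown of tocopherols, were not called. Of 45 antioxidant and glutathione enzymes 1 was down-regulated (against 1.32% of all probes) and 0 up-regulated, with a median of -0.09, which was 0.02 with median scaling. This was Gsta2, a glutathione transferase, at -5.23, -3.67, -3.57 and -3.44 on the deficient and -2.61, -2.53, -3.14 and -2.60 on the supplemented arrays. Its fall of 1.26 (SE 0.38, adjusted p = 0.0236) was lost without deficient replicate 1 (-0.84, adjusted p = 0.170) and without supplemented replicate 1, 2 or 4. Nfe2l2, the regulator of this defence (-0.19), Hmox1 (0.11), Sod1 (-0.09) and Gpx4, the enzyme that reduces lipid peroxides in membranes (-0.02), were not called. The range of changes over the 45 enzymes was -1.26 to 0.23. Of them, 32 were lower on the deficient diet, 6 past the adjusted p, and 13 were higher, 0 past it. The arrays of the diets lay apart for 11 lower and 1 higher member, against 19.0% of all probes in either direction. The list mean was 2.27, 2.41, 2.42 and 2.44 on the deficient and 2.54, 2.53, 2.48 and 2.46 on the supplemented arrays.

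The transferrin receptor and transferrin fell. Of 19 iron genes tested 2 were down-regulated, Tfrc and Trf (against 1.32% of all probes), and 0 up-regulated. Tfrc, the transferrin receptor, which brings iron into cells and is also counted with ferroptosis, was at 0.72, 1.03, 0.85 and 0.59 on the deficient and at 1.52, 1.65, 1.60 and 1.34 on the supplemented arrays. It fell by 0.73 (SE 0.14, adjusted p = 0.00140). All 3 of its probes were called (-0.73, -0.77 and -0.95), the groups did not overlap, and the call held with any array left out. Its mean in wild-type cortex on the normal diet was 1.19, between the diets. Trf, at 5.21, 5.73, 5.97 and 5.89 on the deficient and 6.56, 6.28, 6.29 and 6.50 on the supplemented arrays, is made by oligodendrocytes in brain and is counted with myelin as well. Its call was lost without deficient replicate 1 or 2 or supplemented replicate 1, 3 or 4. Fth1, the ferritin heavy chain, had a change of 0.03, and of the 15 genes of lipid peroxidation death Tfrc alone was called.

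Of the microglial and complement lists, 0 members were called by limma. Of 25 genes of disease-associated microglia, 24 were lower on the deficient diet and 0 were called (3 at an adjusted p alone), with a median of -0.31. Cst7, a cystatin of activated microglia, was at -2.15, -1.48, -1.34 and -1.55 on the deficient and -0.04, -0.84, -1.34 and -0.51 on the supplemented arrays, a difference of -0.95 (adjusted p = 0.0549). The list mean was 0.72, 1.10, 1.19 and 1.14 on the deficient and 1.60, 1.31, 1.11 and 1.40 on the supplemented arrays, so the groups overlapped at supplemented replicate 3. Of 16 homeostatic microglia genes 0 were called and the median was -0.06, with P2ry12 at 0.03. All 14 tested complement genes were lower and 0 called (2 at an adjusted p alone), with C4b at -0.56 (adjusted p = 0.0853) and a list median of -0.26. With median scaling 3 of the 14 were higher. Of 36 antigen presentation and interferon genes 0 were called. Of 21 reactive astrocyte genes Hspb1 rose and Aspg, an asparaginase homologue, fell by 0.61 (adjusted p = 0.0137, lost without deficient replicate 1 or supplemented replicate 1 or 2), while Gfap (-0.23) was not called.

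The lists of respiratory chain (54 tested), ribosomal (49), proteasome (31), cholesterol (25), circadian clock (21), glucocorticoid (18), phospholipase A2 (16), eicosanoid (17), homeostatic astrocyte (20) and integrated stress response genes (15) held 0 calls. Their medians lay between -0.24 and 0.02. Of 23 genes of amyloid precursor processing 1 was up-regulated (against 1.99% of all probes) and 0 down-regulated. This was Ncstn, a subunit of γ-secretase, at -2.28, -2.97, -2.89 and -3.30 on the deficient and -3.87, -3.34, -3.88 and -3.48 on the supplemented arrays. It rose by 0.78 (adjusted p = 0.0299) and was not called without deficient replicate 1 or 3 or supplemented replicate 1 or 3. App (-0.14) and Bace1 (0.07) were not called.

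The genes that the study singled out did not separate the diets. Of 9 tested, 0 were called by limma. The study chose Pla2g3 and its other array candidates from different comparisons. These were aged Ttpa-/- against aged wild-type cerebrum, and aged against young wild-type mice. It also followed Pla2g3 by qRT-PCR against wild-type mice on the normal diet, by western blot and by immunostaining. Pla2g3, the secreted phospholipase the study follows, was at -0.96, -0.66, -0.79 and -0.79 on the deficient and -0.78, -0.28, -0.61 and -1.08 on the supplemented arrays. Its difference was -0.11 (SE 0.40, adjusted p = 0.893), and that of its other probe 0.19. Both groups were above the mean of wild-type cortex on the normal diet, -1.39, without a call. The SE in these tests borrowed the spread of all arrays of the series, not of the compared groups alone. The missing calls therefore do not exclude a difference of Pla2g3 from wild-type cortex. Ide, the insulin-degrading enzyme, differed by -0.09 between the diets. It was lower than in wild-type cortex on the normal diet in deficient mice (-0.66, called). The diet difference was not called by limma (adjusted p = 0.818), which does not show equal levels on both diets. Whether the lower level is particular to the deficient mice was not tested. Fcgbp (-0.54), Gm3448 (-0.54), Tcp10c (0.21, and -0.50 by another tested probe), Tsga10 (0.58, adjusted p = 0.0699), Pla2g5 (0.18) and Pla2g6 (0.26) were not called between the diets. Car8, Mybpc2 and Pla2g2e were too dim to be tested. Car8, a carbonic anhydrase-related protein, was above background on 2 of 4 deficient and 0 of 4 supplemented arrays.

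Many of the largest falls came from 1 interval of chromosome 4. Between 41716285 and 42881440 of mm9, 18 of 29 probes were tested, and 14 were down-regulated and 0 up-regulated in the cortex. The interval holds copies of chemokine and interleukin receptor genes that are known to differ in number between mouse strains, and near-identical copies share probes, so that single genes are uncertain there. Ttpa lies on the same chromosome, with its probe at 19957856 to 19957915. Gm13298, now named Fam205a2, was at -6.69, -0.62, -4.54 and 0.12 on the deficient and at 1.28, 1.22, 1.67 and 1.61 on the supplemented arrays by its most changed probe, a fall of 4.38 (adjusted p = 0.00440). The deficient arrays spread over more than 6 log2 units, with replicates 2 and 4 the closest to the supplemented arrays and replicates 1 and 3 far below. The same spread was seen in 4933409K07Rik (-6.57, -0.89, -5.14 and 0.22 on the deficient arrays), whose call was lost without deficient replicate 1 (adjusted p = 0.0532), and in Gm1987 (-2.25, 1.41, -1.83 and 2.01).

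Ccl27a, a skin and brain chemokine (chr4:41716345-41716404), was at 2.64, 3.07, 2.47 and 3.73 on the deficient and 4.38, 4.43, 4.88 and 4.92 on the supplemented arrays. It fell by 1.67 (SE 0.22, adjusted p = 3.11e-05), with all 3 probes called. Ccl19, a lymphocyte chemokine, was at -3.34, -2.49, -3.36 and -2.32 on the deficient and -1.28, -1.11, -0.77 and -1.29 on the supplemented arrays, a fall of 1.76 (adjusted p = 0.000414), with 2 of 3 probes called. Gm13308 and Gm3893, the latter on unplaced sequence, fell by 1.71 and 4.02. Every gene named here was lower on all deficient than on all supplemented arrays, which was a condition for naming the largest falls. The supplemented arrays were near wild-type cortex on the normal diet, where the means were 1.65 for Gm13298 and 4.73 for Ccl27a.

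In the cerebellum 13 of the interval's probes were down-regulated on the deficient diet. Gm13298 was at -6.79, -7.04, -6.82 and -0.49 on the deficient and 1.30, 1.03, 1.47 and 1.34 on the supplemented arrays, so that replicate 4 was the highest deficient array in both regions, while replicate 2 was at -0.62 in the cortex and -7.04 in the cerebellum. Creb3, a transcription factor gene farther along the chromosome (chr4:43579839-43579898), was named after its values were seen. It was at 1.32, 1.78, 1.46 and 2.08 on the deficient and 2.75, 2.83, 2.57 and 2.76 on the supplemented arrays, and fell by 1.07 in the cortex (adjusted p = 8.56e-06) and 1.03 in the cerebellum (adjusted p = 1.63e-05). The genotype of the interval in single mice was not tested.

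**Figure D4:**
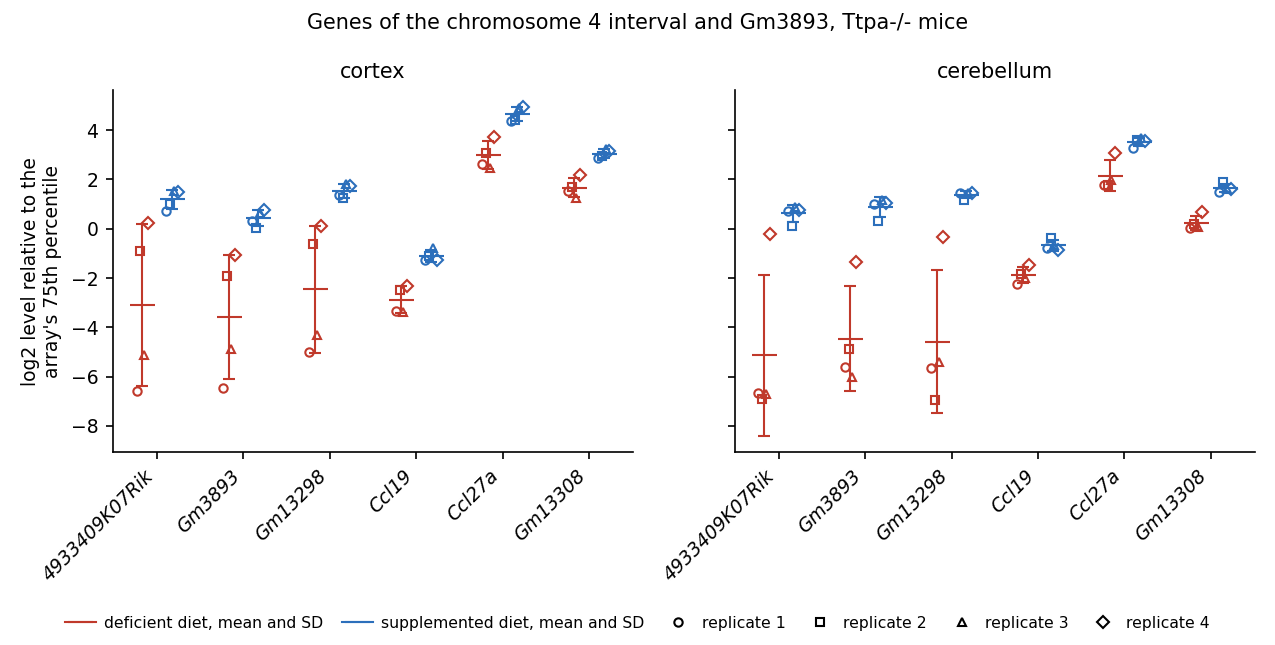
Log2 level relative to the array's 75th percentile (y axis) of 5 genes of the chromosome 4 interval and of Gm3893, on unplaced sequence, on each array of Ttpa-/- cortex (left) and cerebellum (right), with bars for the mean and SD (n = 4) and 1 probe a gene, the one with the highest mean over all arrays. The supplemented arrays (blue) lie close together, and the deficient arrays (red) lie below them and spread widely for 4933409K07Rik, Gm3893 and Gm13298, with replicate 4 highest.

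The rise of Rab39, a GTPase of vesicle transport, rested on arrays at -2.81, -2.81, -3.05 and -2.72 on the deficient and -3.40, -3.61, -5.55 and -4.23 on the supplemented diet, and was 1.35 (SE 0.39, adjusted p = 0.0186). It was lost without deficient replicate 1 or supplemented replicate 3. The call of Alg6, a glucosyltransferase of N-glycan assembly, came from 1 array, since the deficient arrays were at 0.32, -3.34, -2.99 and -3.36, the supplemented arrays at -3.77 to -3.58, and the other probe changed by -0.21. Tcfl5 (at least 1.33-fold, adjusted p = 0.0115), St6galnac1 (at least 1.40-fold, adjusted p = 0.0215), Col10a1 (at least 1.95-fold, adjusted p = 0.00473) and Olfr166 (at least 1.43-fold, adjusted p = 0.0243) were above background on 4 of 4 deficient and 0 of 4 supplemented arrays. For St6galnac1 the other probe had a change of -0.85 and was not called. The call of Olfr166 was lost when any 1 of 4 arrays (deficient replicate 1 or 2, supplemented replicate 2 or 4) was left out, and that of St6galnac1 without deficient replicate 3 or supplemented replicate 2. C2cd4a rose by 1.24 in 1 of 2 probes (adjusted p = 0.0201, lost without deficient replicate 1 or supplemented replicate 2 or 3), and 4933437F05Rik, now Noxred1, by 1.24 (adjusted p = 0.00228).

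Fmnl1, Pglyrp1 and Inhba were above background on all 8 arrays. Fmnl1, a formin of the actin skeleton, was at 1.08, 0.12, 0.47 and -0.44 on the deficient and -0.91, -0.90, -1.01 and -0.81 on the supplemented arrays, and rose by 1.22 (SE 0.22, adjusted p = 0.000841). Pglyrp1, a peptidoglycan recognition protein of innate immunity, was at 0.22, 0.03, 0.62 and -0.42 on the deficient and -1.42, -0.81, -1.10 and -1.08 on the supplemented arrays, and rose by 1.21 (adjusted p = 0.00423). Inhba, the activin βA subunit, induced by synaptic activity, was at 0.46, -0.16, 0.18 and 0.16 on the deficient and -0.69, -1.39, -1.03 and -0.93 on the supplemented arrays. It rose by 1.17 (SE 0.20, adjusted p = 0.000398). These 3 genes were chosen among probes whose arrays do not overlap between the diets, so that their separation is no further result. They kept their call with any array left out. Against the wild-type normal diet they stood differently, since Fmnl1 and Pglyrp1 were higher in deficient Ttpa-/- mice (1.15 and 1.02, both called), whereas Inhba was lower in supplemented Ttpa-/- mice (-0.90, called) and also in wild-type mice on the deficient diet (-0.86, called).

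Among the falls, 5430413K10Rik, now Bpifb9b, differed by -3.49 (adjusted p = 0.0288) with supplemented arrays spread from -2.49 to 3.84. Itgad, an integrin of macrophages, fell by 2.14 (adjusted p = 0.0474), with 2 of 4 deficient arrays above background. The same count held for Cyp2a4 (-1.67, adjusted p = 0.0319). These calls did not hold when single arrays were left out, in 3 of 8 cases for Bpifb9b, 6 for Itgad and 4 for Cyp2a4. Eps8l1, an actin regulator (chr7:4430514-4430573), was at -5.09, -3.38, -4.48 and -5.56 on the deficient and at -2.36, -2.73, -2.61 and -2.43 on the supplemented arrays, a difference of -2.09 (SE 0.50, adjusted p = 0.00623), and of -2.31 in the cerebellum. It was above background on 2 of 4 deficient arrays in the cortex and 1 of 4 in the cerebellum, so that these sizes rest on arrays near background. 1700015F17Rik, now Pttg1ip2, was at least 1.95-fold lower (adjusted p = 0.00211), with 0 of 4 deficient arrays above background.

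In both regions, 32 probes were called in the same direction, 7 up and 25 down, and 0 in opposite directions. They are 3.33% of the cortical and 30.5% of the cerebellar calls, and 12 of them lie in the chromosome 4 interval. The shared up-regulated probes with a symbol, named after their values were seen, were Hspb1, Sdf2l1, Serpinh1, the collagen chaperone, P4ha1, a collagen prolyl hydroxylase, Derl3, of endoplasmic reticulum associated degradation, and Mkks, a chaperonin-like protein. Serpinh1 was at 0.57, 0.43, 0.52 and 0.81 on the deficient and 0.13, -0.14, -0.23 and 0.01 on the supplemented cortical arrays, a rise of 0.64 (adjusted p = 0.00212), and rose by 0.61 in the cerebellum. Shared falls outside chromosome 4 included Gpr116, an adhesion receptor (-1.22 and -0.84), Rab37 (-0.70 and -0.67), Spdya (-0.64 and -0.63) and Gm10394 (-1.03 and -1.17).

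The diet effect itself differed between the regions for 14 of 31757 probes (0.0441%), 7 in each direction, by the limma interaction, and 5237 passed an unadjusted p. With the replicate number as a block 81 were called, with each array scaled to its median 0, and without single arrays 0 to 696, the lowest without deficient cerebellar replicate 4 and the highest without deficient cortical replicate 4. The difference of the cortical minus the cerebellar effect was largest for 2310021H06Rik (1.39, SE 0.23, adjusted p = 0.0142), whose changes were 0.85 in the cortex and -0.54 in the cerebellum. Trp53i11 (1.10), 1 of the Mbp probes (0.86), Nova2, a neuronal splicing regulator (0.81), and the kinase Sbk1 (0.76) also had the higher effect in the cortex. Nova2 rose in the cortex by 0.90 and had 0.09 in the cerebellum. The effect was lower in the cortex for Clstn2, a synaptic cadherin-like protein (-0.94), Hscb, a cochaperone of iron-sulfur cluster assembly (-0.72), Frmd3 (-0.71), Chgb, a granin of secretory granules (-0.67), and Zfp82 (-0.60). Clstn2 changed by -0.44 in the cortex and 0.50 in the cerebellum. With single arrays left out, the calls of Trp53i11, Mbp and Sbk1 were each lost in 10 of 16 fits. Those of Nova2, Hscb, Frmd3 and Zfp82 were lost in 11, and the adjusted p of these genes was 0.0430 or 0.0432 with all arrays. The calls of 2310021H06Rik, Chgb and Clstn2 were lost in 3, 4 and 1 of the fits.

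Markers of other tissue differed between single arrays. The mean level of 13 choroid plexus genes was -1.95 on deficient replicate 1 and 1.07 to 1.19 on the other deficient arrays, against 1.22, 1.39, 0.08 and 0.32 on the supplemented arrays, and 12 of the 13 were lower on the deficient diet. Without that array 12 of the 13 were higher, with a median of 0.40 instead of -0.43. The 9 red cell genes had means from 0.90 to 4.00 on the deficient and 2.17 to 4.20 on the supplemented arrays. Striatal genes lay between 1.11 and 1.31 on the deficient and between 0.60 and 1.80 on the supplemented arrays, and hippocampal genes from -0.55 to -0.14 and from -0.19 to 0.27. Called members of the marker lists other than Slc17a7 were Lct (-1.13), Lum (-0.80) and Ogn (-0.65), genes of meningeal fibroblasts in the last cases, Synpo2 (-0.62) and Syndig1l (0.80). When single arrays were left out, the call was lost in 1 of 8 cases for Lct, 2 for Ogn, 2 for Synpo2, 4 for Syndig1l and 0 for Lum. Of the choroid plexus, red cell, leukocyte and endothelial lists, 0 members were called. Y-linked genes were above background on 0 of 4 arrays and Xist on 4 of 4 arrays of each diet. The part of these tissues in the diet differences was not tested.

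**Figure D5:**
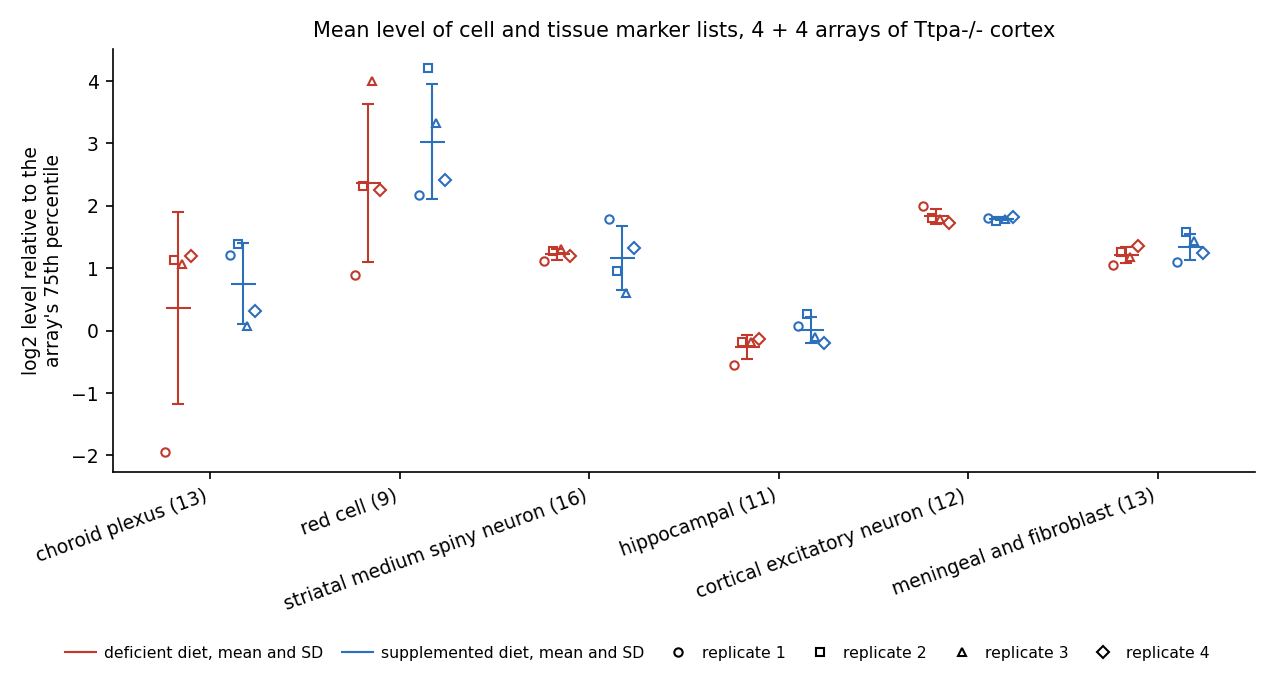
Mean log2 level relative to the array's 75th percentile (y axis) of 6 marker lists, with the number of genes in brackets, on each array of Ttpa-/- cortex (red deficient, blue supplemented, symbols for replicates, bars for mean and SD, n = 4). Choroid plexus genes are at -1.95 on deficient replicate 1 and at 0.08 or above elsewhere, and cortical excitatory neuron genes stay between 1.72 and 2.00.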

How the data were processed

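Conditions were taken from the deposited labels. The authors deposited scanner tables with intensity values per spot (Feature Extraction 10.7.3.1 per the file headers, 10.1.1.1 in the submitters' processing notes), with the background already subtracted and no scaling between arrays. A table of log2 values deposited by the authors was also used, and equals the scaled log2 intensity centred on each probe's mean to a median difference of 0.00085. Flagged spots (95 to 148 an array) were left out, spots of a probe averaged, and the array's 75th percentile subtracted on the log2 scale. Of 55681 probes, 55589 were kept. The number of arrays limits the precision.

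Groups were compared with limma 3.58.1 in R 4.3.3, fitted to all 40 arrays with 10 group coefficients and no block. Benjamini-Hochberg adjustment covered probes detected (well above background) on each of the 4 arrays in 1 or both compared groups. Single genes were also compared by the exact permutation test over 70 splits. For arrays of equal replicate number, deviations from the group means correlated at 0.174, 0.450, 0.102 and 0.258 between diets. Arrays of unlike number were not compared in this way, and the labels state no pairing. A number is also a place on the slide.

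Named were the 12 largest rises and falls without overlap among called probes with a symbol, called list members (the 3 largest each way in lists with over 6 calls), some uncalled members readers look for, the study's genes, and called region differences. The probe with the highest mean stands for a gene. Members and lists were chosen with earlier results of these data known. Alternatives were other scalings, normexp (offset 50), the authors' values, other filters, the block, array weights, other thresholds, the methods' t-test, other prior spreads and leaving out arrays. Recovery of known changes was tested on simulated data. Of 21916 transcript identifiers, 20591 matched the RefSeq table of names. Positions are those of the files (mm9), without exon or UTR, and promoter positions are those of RefSeq on GRCm38.p6. Values of some genes are not reported here.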

Additional observations from a re-analysis of the deposited data

Results flagged for a closer look

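The gap test for 1 array apart from the other 3 of its group was made in 328 groups of 4 arrays and found 23, where chance gives about 1 in 20. Of these, 22 are given here. On deficient replicate 1, log2 levels stood apart for Alg6 (0.32), Gsta2 (-5.23), Hspa1a (0.84), Sgk1 (2.25) and Fcgbp (-5.44), and list means for the antioxidant enzymes (2.27), the genes the study names (-1.19), hippocampal markers (-0.55) and choroid plexus markers (-1.95). On deficient replicate 4 they were Apoe (7.72), Pla2g4a (-1.24), Grin2d (-3.67) and Gad1 (4.20). On supplemented replicate 1 they were Hmox1 (0.15), Ptgs2 (-0.73), Hspb1 (2.67) and the mean of pericyte and smooth muscle markers (-0.66). On supplemented replicate 3 they were Gsta2 (-3.14), Acsl4 (3.32), Car8 (-4.90) and Pla2g6 (0.038), and on supplemented replicate 4 the mean of thalamic markers (-0.24).

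The diet effect differed between cortex and cerebellum for 14 probes by the interaction of limma. The cortical minus the cerebellar effect was 1.39 for 2310021H06Rik, 1.10 for Trp53i11, 0.86 for 1 of the Mbp probes, 0.81 for Nova2 and 0.76 for Sbk1, and -0.94 for Clstn2, -0.72 for Hscb, -0.71 for Frmd3, -0.67 for Chgb and -0.60 for Zfp82. The cortical diets lay on different slides and the cerebellar diets on the same slide.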

How the results depend on the processing

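The 66 called values of named genes (56 for the diet and 10 for the region difference) kept their direction under all settings, with the exception of 2 diet values for which another probe stands under 1 probe a symbol, Alg6 (-0.21) and St6galnac1 (-0.85). The calls held less well. Of the 66, all stayed called with the authors' values, 63 with quantile normalization, 39 with each array's median and 0 with only the compared arrays. Without deficient replicate 1, 31 stayed, and without supplemented replicate 3, 41. By the methods' t-test after Benjamini-Hochberg, 10 of 56 stayed. The replicate block (a term for each replicate number) gave 604 probes up and 404 down and changed no diet call of a named gene, and 81 for the region difference. The counts up, down and for the region difference were 808, 111 and 0 with each array's median, 737, 288 and 91 with quantile normalization, 290, 169 and 71 with normexp, 581, 382 and 14 with the authors' values, 559, 488 and 3 without a filter, 521, 318 and 28 with all compared arrays above background, 738, 598 and 628 with array weights, 722, 609 and 1428 with the unadjusted p, 2132, 1965 and 18 without the fold, and 228, 184 and 15 with 1 probe a symbol, which tests fewer features. The methods' t-test gave 663 and 460 unadjusted and 89 and 69 after Benjamini-Hochberg. A fit of only the compared arrays gave 0, 0 and 0, also with the replicate block, where 7318 and 6146 probes passed an unadjusted p for the diet and 3762 for the region difference without the block. With the prior spread over tested probes, chosen after seeing the data, the counts were 599, 402 and 71 with all arrays and 427, 255 and 0 with the compared arrays. Leaving out single arrays gave 243 to 945 up, 216 to 536 down and 0 to 696 for the region difference. The causes of these shifts were not tested. The slide as a block was not run, because it could not be fitted with each cortical group on 1 slide. Dim probes, at or near background in one group, limit many of the largest values.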
